A study of Homo sapiens with 6 samples.

Results

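The laminin chain genes LAMA1, LAMA2, LAMA4, LAMA5, LAMB1, LAMB2, LAMB3, LAMC1 and LAMC3 and the nidogen gene NID1 were followed in 2 human small cell lung cancer lines. These 10 genes were chosen by name, and all 10 were measured, each by 1 probe set of a whole-transcript array, among 18404 genes in all. Total RNA of H69M (3 arrays) and of H69 (3 arrays) was hybridised. Both lines are labelled as small cell lung cancer, and the labels give no treatment and no account of how H69M was obtained. H69 is a widely used line of neuroendocrine type whose cells grow in suspension as clumps. Each line is a single cell line, and nothing in the labels says that its 3 arrays came from separate cultures, so the p-values measure only how far these arrays spread, and that spread may be technical.

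Laminins are secreted proteins of 1 alpha, 1 beta and 1 gamma chain, many of them cross-shaped. They form the sheet of the basement membrane, which lies under epithelial and endothelial cells and around muscle and Schwann cells. A trimer is named by its chain numbers, so that laminin-511 holds the products of LAMA5, LAMB1 and LAMC1. The beta and gamma chains pair first inside the cell, and the alpha chain completes the trimer, lets it be secreted and carries the main sites for cell receptors. Nidogens bind the gamma1 chain and collagen IV and so link both networks.

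Values are log2 array values, normalized by the submitters. They carry no detection call, and probe sets differ in response, so every test compares the lines within a gene. As a rough description of dim and bright, which does set probe sets against each other and shows neither presence nor absence of a message, a dim-level line was drawn in each cell line at the 95th percentile of 340 olfactory receptor genes, which most tissues do not use. It lay at 5.55 in H69M and 5.72 in H69, and 75.2% of all genes in H69M and 71.8% in H69 lay above it.

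The promoters of the at least 2-fold higher members for which RefSeq (GRCh38.p14) gave one are shown here because these genes moved the same way. Each runs from 250 bases before to 50 bases after the annotated start, and capitals mark the GC box GGGCGG on either strand.
LAMA4 (chr6:112254518-112254817, minus strand): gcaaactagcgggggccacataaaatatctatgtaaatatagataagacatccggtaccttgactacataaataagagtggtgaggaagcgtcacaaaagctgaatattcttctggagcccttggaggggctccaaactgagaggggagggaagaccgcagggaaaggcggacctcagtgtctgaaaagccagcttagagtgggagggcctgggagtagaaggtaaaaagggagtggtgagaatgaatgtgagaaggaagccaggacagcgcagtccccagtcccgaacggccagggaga
LAMB2 (chr3:49133001-49133300, minus strand): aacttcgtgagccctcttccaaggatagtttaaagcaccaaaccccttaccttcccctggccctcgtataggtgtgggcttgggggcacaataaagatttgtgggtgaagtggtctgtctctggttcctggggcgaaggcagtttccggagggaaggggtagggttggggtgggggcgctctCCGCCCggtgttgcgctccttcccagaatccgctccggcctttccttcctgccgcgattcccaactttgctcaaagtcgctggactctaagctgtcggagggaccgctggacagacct
LAMC1 (chr1:183023170-183023469, plus strand): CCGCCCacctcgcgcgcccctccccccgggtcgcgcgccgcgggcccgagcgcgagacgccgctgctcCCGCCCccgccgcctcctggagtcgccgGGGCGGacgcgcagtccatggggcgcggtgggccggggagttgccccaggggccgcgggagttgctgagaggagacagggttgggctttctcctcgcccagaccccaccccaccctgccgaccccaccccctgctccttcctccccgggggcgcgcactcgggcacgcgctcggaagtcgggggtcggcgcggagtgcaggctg
NID1 (chr1:236065041-236065340, minus strand): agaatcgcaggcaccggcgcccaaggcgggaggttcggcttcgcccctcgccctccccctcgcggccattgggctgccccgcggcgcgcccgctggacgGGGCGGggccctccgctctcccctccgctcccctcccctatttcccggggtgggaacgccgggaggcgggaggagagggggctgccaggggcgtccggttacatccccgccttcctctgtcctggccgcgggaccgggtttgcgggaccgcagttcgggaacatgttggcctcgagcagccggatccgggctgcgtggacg
The LAMA4 window held 0 GC boxes, the LAMB2 and NID1 windows held 1 each and the LAMC1 window held 3. Of all 35116 promoter windows of this length, 45.0% held at least 1. The base composition also differed: 51.3% of the LAMA4 bases were G or C, against 58.7% for LAMB2, 74.7% for NID1 and 79.0% for LAMC1, beside a median of 58.7% over all windows. None of these 4 windows held the AP-1 motif TGANTCA (in 7.71% of all windows), the TEAD motif GGAATG (14.0%), the E-box CACCTG (20.6%) or TATAAA (11.5%), searched on both strands. The CCAAT box (34.6%) was found in the NID1 window and not in the other 3. RefSeq windows were matched for 8 of the 10 members.

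Most of the laminin and nidogen genes were higher in H69M. Of the 10 members, 7 were higher in H69M at a limma Benjamini-Hochberg adjusted p threshold of 0.05, 0 were lower and 3 did not pass. Over all genes, 21% were called higher and 23.2% lower, 44.2% in either direction. The split over all genes moved with the scaling, from 3866 higher and 4274 lower as deposited to 4229 and 3884 with arrays centred on their medians and 3584 and 5478 with a further quantile normalization. Of the members, 5 were at least 2-fold higher, against 5.56% of all genes. The arrays of the lines were fully separated with H69M above in 7 members, and in 25.8% of all genes. The members' median log2 fold change was 0.88, and that of all genes was -0.041. In RNA of whole cultures, more cells with a message and more message per cell cannot be told apart.

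**Figure D1:**
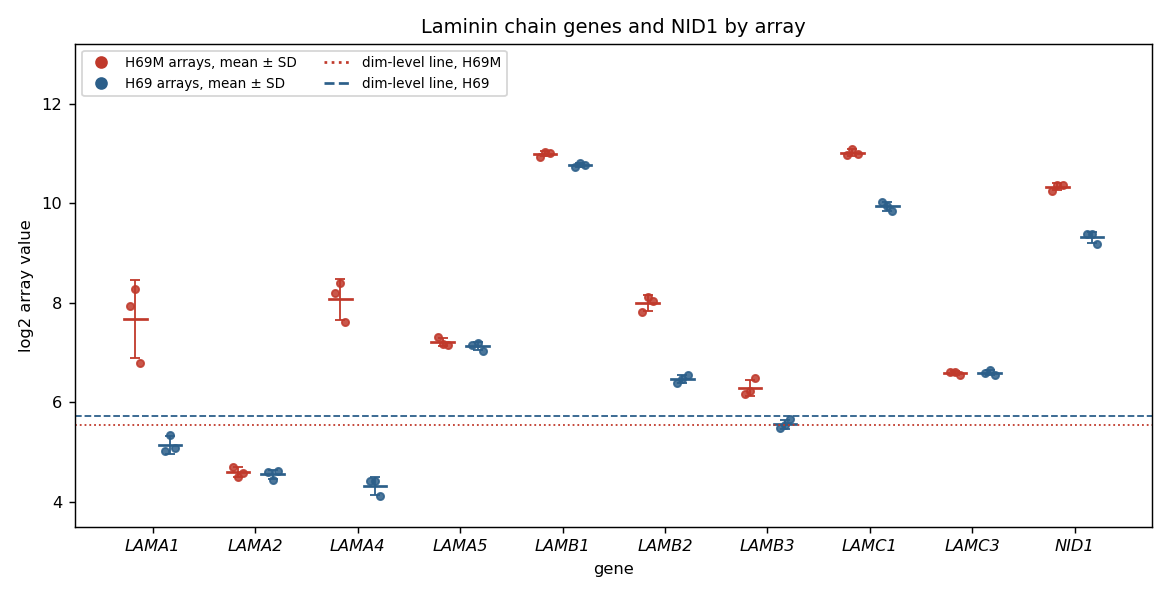
Log2 array values (y axis) of the 10 genes (x axis) in each H69M array (red, left) and H69 array (blue, right), with the mean and SD (n = 3) and the dim-level line of each cell line. LAMA4 and LAMA1 lie above the H69M line in every H69M array and below the H69 line in every H69 array, while LAMA2, LAMA5 and LAMC3 overlap between the lines.

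Among the alpha chains, LAMA4 and LAMA1 rose and LAMA5 and LAMA2 did not pass the test. LAMA4 encodes alpha4, a short alpha chain of vessel and mesenchymal basement membranes (probe set 8128991). It stood at 8.19, 8.40 and 7.61 (log2) in the H69M arrays, against 4.42, 4.42 and 4.12 in the H69 arrays. The lowest H69M array lay 3.19 above the highest H69 array, and in H69 the gene was dim, with 58.8% of the olfactory receptor genes below it. The mean was 8.07 ± 0.41 in H69M and 4.32 ± 0.17 in H69 (log2, SD, n = 3), a 13.4-fold difference (log2 fold change 3.75 ± 0.19 SE, limma Benjamini-Hochberg adjusted p = 3.14e-06). Its fold change ranked 104th from the highest of 18404 genes. Since H69 was dim and log2 values of this kind compress folds from dim levels, the true ratio may be larger.

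LAMA1 encodes alpha1, the alpha chain of the early embryo's laminin (probe set 8022176). Its H69M arrays gave 7.94, 8.28 and 6.78 (log2), and its H69 arrays 5.01, 5.35 and 5.08. The lines did not overlap, although H69M replicate 3 lay well below the other H69M arrays. The difference was 5.72-fold (log2 fold change 2.52 ± 0.34 SE, limma Benjamini-Hochberg adjusted p = 0.000548), and without H69M replicate 3 the log2 fold change was 2.96. H69 lay 0.57 below its dim-level line, so this ratio too may be understated.

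LAMA5 encodes alpha5, the most widespread alpha chain of adult epithelia, the lung included (probe set 8067409). It was measured at 7.30, 7.17 and 7.15 (log2) in H69M and at 7.14, 7.20 and 7.04 in H69, so the arrays overlapped. The log2 fold change of 0.081 had a 95% interval of -0.085 to 0.25 (limma Benjamini-Hochberg adjusted p = 0.401). Both lines held LAMA5 above the dim-level line, by 1.66 in H69M and 1.41 in H69.

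LAMA2 encodes alpha2, the chain of muscle and of Schwann cells (probe set 8121949). It was dim in every array, between 4.50 and 4.71 (log2) in H69M and between 4.44 and 4.61 in H69. The log2 fold change was 0.047, with a 95% interval of -0.13 to 0.23 (limma Benjamini-Hochberg adjusted p = 0.664).

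The 3 beta chain genes all rose, by different amounts. LAMB2 encodes beta2, known from the nerve-muscle synapse and the kidney filter (probe set 8087337). It was 7.82, 8.12 and 8.04 (log2) in H69M, against 6.40, 6.48 and 6.55 in H69, a clear separation in all arrays. The difference was 2.87-fold (log2 fold change 1.52 ± 0.088 SE, limma Benjamini-Hochberg adjusted p = 6.08e-06).

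LAMB1, which encodes beta1, the common beta chain (probe set 8142194), was bright in both lines. Its arrays read 10.93, 11.03 and 11.01 (log2) in H69M and 10.73, 10.80 and 10.77 in H69. The lines did not overlap, but the gap between them was only 0.13. The log2 fold change was 0.23 ± 0.058 SE (limma Benjamini-Hochberg adjusted p = 0.0143), and the call was lost without H69M replicate 2 (adjusted p = 0.0515) or H69 replicate 1 (adjusted p = 0.0584). The 95% interval was 0.091 to 0.36 for LAMB1 and 1.31 to 1.72 for LAMB2. The difference between these changes was not tested.

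LAMB3 encodes beta3, a chain of epithelial basement membranes (probe set 7924029). Its H69M arrays lay at 6.17, 6.23 and 6.48 (log2) and its H69 arrays at 5.48, 5.54 and 5.66. The lines were separated by 0.51, with H69M above its dim-level line and H69 below its own by 0.16. The log2 fold change was 0.74 ± 0.093 SE (limma Benjamini-Hochberg adjusted p = 0.000405).

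Of the gamma chains, LAMC1 rose and LAMC3 did not pass. LAMC1 encodes gamma1, the gamma chain of most laminins (probe set 7908041). It was bright in both lines, at 10.97, 11.09 and 10.99 (log2) in H69M and 10.03, 9.94 and 9.84 in H69. Every H69M array lay at least 0.95 above every H69 array. The difference was 2.12-fold (log2 fold change 1.08 ± 0.070 SE, limma Benjamini-Hochberg adjusted p = 1.03e-05). LAMC3 encodes gamma3 (probe set 8158739). Its values spanned 6.54 to 6.62 (log2) in H69M and 6.56 to 6.65 in H69 and overlapped. The log2 fold change of -0.0091 had a 95% interval of -0.14 to 0.12 (limma Benjamini-Hochberg adjusted p = 0.916), a narrow interval next to the change in LAMC1.

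NID1, which encodes nidogen-1, the linker that docks on gamma1 (probe set 7925320), also rose. It read 10.25, 10.37 and 10.37 (log2) in H69M, against 9.38, 9.37 and 9.19 in H69, with no overlap. The difference was 2.02-fold (log2 fold change 1.02 ± 0.074 SE, limma Benjamini-Hochberg adjusted p = 2.01e-05).

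Outside the 10 genes, NID2 and LAMB4 were the other measured members of these families, and they moved in opposite directions. NID2, the second nidogen, was 9.29, 9.37 and 8.34 (log2) in H69M and 7.72, 7.66 and 7.37 in H69. It was 2.68-fold higher in H69M (log2 fold change 1.42 ± 0.26 SE, limma Benjamini-Hochberg adjusted p = 0.00256). LAMB4, a beta chain gene whose product has no settled place in a trimer, was below the dim-level line in both lines, at 4.91, 4.57 and 4.53 (log2) in H69M and 5.52, 5.27 and 5.38 in H69. Its log2 fold change was -0.72 (limma Benjamini-Hochberg adjusted p = 0.00126).

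**Figure D2:**
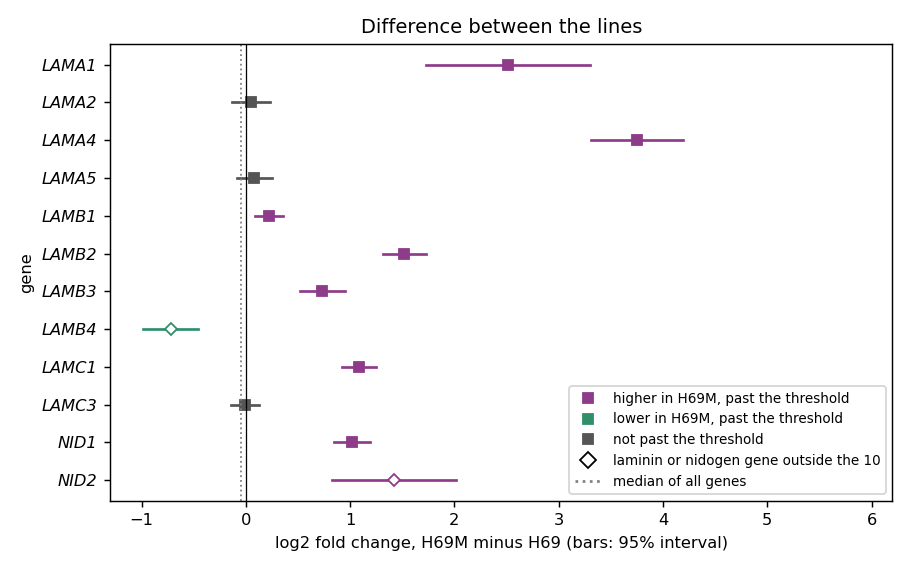
Log2 fold change, H69M minus H69 (x axis), with its 95% interval for each laminin and nidogen gene (y axis), and the median of all genes as a dotted line at -0.041. LAMA4 lies farthest to the right at 3.75, the intervals of LAMA2, LAMA5 and LAMC3 include 0, and LAMB4 is below 0.

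The spread among the H69M arrays differed between the members. H69M replicate 3 was the lowest H69M array for LAMA1, by 0.89 below the H69M mean, and for LAMA4, by 0.46. NID2 had the same order, at 0.66 below its mean. LAMB2, LAMC1, LAMB1, LAMB3 and NID1 had replicate 1 as their lowest H69M array instead, by 0.17 or less. Over the 1024 genes that were at least 2-fold higher in H69M, replicate 1 was the lowest H69M array in 64.7%, replicate 3 in 25.7% and replicate 2 in 9.57%. The calls of LAMA1, LAMA4 and NID2 held without replicate 3, and their log2 fold changes were then 2.96, 3.98 and 1.75.

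The laminin trimers were set against which chains lay above the dim-level line, as a description with no test. In H69M 9 of the 10 members were above it, all but LAMA2. In H69 6 were, with LAMA1, LAMA2, LAMA4 and LAMB3 below. The line was passed by 75.2% of all genes in H69M and 71.8% in H69. Of 15 laminins known from the literature, 11 could be assessed, and the other 4 are not analysed here. All 3 chains lay above the line for 8 of 11 in H69M and for 3 of 11 in H69.

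Laminin-511, laminin-521 and laminin-523, the trimers with alpha5, had all their chains above the line in both lines. Laminin-411, laminin-421 and laminin-423, with alpha4, and laminin-111 and laminin-121, with alpha1, had them above it in H69M only. In H69 each of these 5 had its alpha chain alone below the line. Laminin-211, laminin-221 and laminin-213 had LAMA2 below the line in both lines. When the median of all genes (7.20 in H69M, 7.12 in H69) was used as a stricter line, 6 trimers were counted in H69M and 1 in H69, laminin-511. LAMA5 lay close to that stricter line, at 7.21 in H69M and 7.13 in H69. LAMC3 was below it in both lines, and LAMB2 was below it in H69. Message above a line does not show that a protein was made or a trimer secreted.

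**Figure D3:**
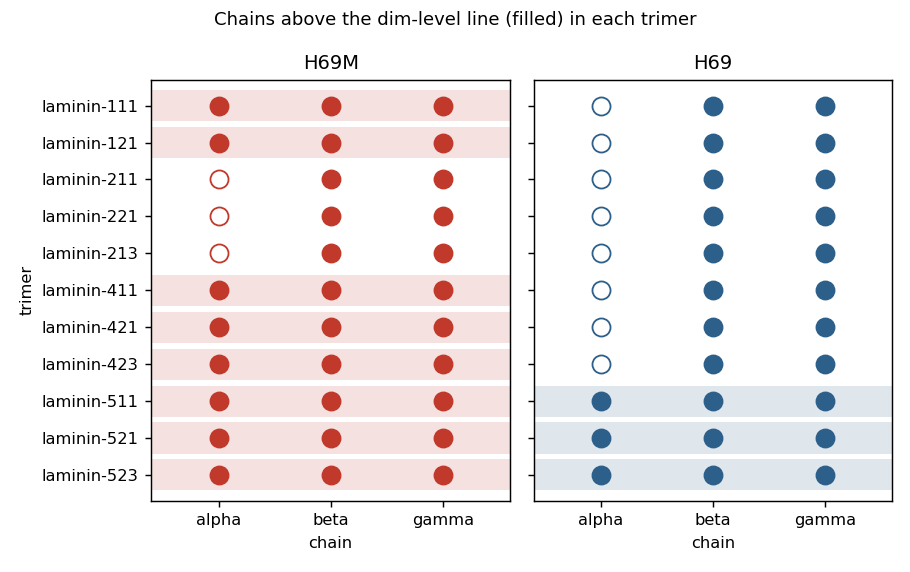
The 11 assessable trimers (y axis) by chain (x axis) in H69M (left) and H69 (right), with filled circles for chains whose mean of 3 arrays was above the dim-level line and shaded rows where all 3 were. In H69M 8 rows are shaded and in H69 3, and all open circles are in the alpha column.

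Genes of laminin receptors mostly rose with the chains. Of 11 measured receptor genes, 8 were higher in H69M and 0 lower, beside 21% higher and 23.2% lower over all genes. The median log2 fold change of the receptor genes was 1.03. ITGA3, the alpha subunit of integrin alpha3beta1, which binds laminin-511, was 10.67, 10.92 and 11.04 (log2) in H69M and 8.35, 8.33 and 8.14 in H69 (limma Benjamini-Hochberg adjusted p = 1.04e-06). ITGA2, part of a collagen and laminin receptor, rose by 3.05, MCAM, which binds laminin-411 and laminin-421, by 2.61, and the tetraspanin CD151, a partner of laminin-binding integrins, by 1.48. ITGB1, the beta1 subunit that the products of ITGA3 and ITGA2 share, rose by 1.08 and BCAM, a receptor for alpha5, by 1.03. ITGA2 was below the dim-level line in H69, so its change may be understated.

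The remaining laminin-binding integrin subunits did not pass the test. ITGA6 was bright in both lines, at 9.08 ± 0.14 in H69M and 9.15 ± 0.066 in H69 (log2, SD, n = 3), with a 95% interval of -0.26 to 0.12 for the log2 fold change. ITGA7, the muscle type, had a log2 fold change of -0.082, and ITGB4, the hemidesmosome partner of ITGA6, had 0.077. ITGA7 lay only 0.33 above the dim-level line in H69M and 0.23 above it in H69. ITGB4 lay 0.011 above it in H69M and 0.24 below it in H69. These low levels limit what ITGA7 and ITGB4 can show. DAG1, ITGA1, RPSA and SDC4 are not analysed here.

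Basement membrane partners of laminin were split. Of 22 measured genes, 8 were higher in H69M and 9 lower, with a median log2 fold change of -0.011. Over all genes, 21% were called higher and 23.2% lower, so calls in both directions are not particular to this list. HSPG2, which encodes perlecan, was 7.93, 7.81 and 8.04 (log2) in H69M and 6.65, 6.65 and 6.52 in H69 (log2 fold change 1.32, limma Benjamini-Hochberg adjusted p = 6.72e-06), and AGRN, which encodes agrin, rose by 0.93. NTN4, whose product netrin-4 binds laminin gamma1, rose by 3.90, the matricellular gene SPARC by 7.75, and PXDN, the peroxidase that cross-links collagen IV, rose by 2.91. SPARC was below the dim-level line in H69, so its change may be understated. SMOC1, a calcium-binding matrix gene, fell (-1.35).

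The common collagen IV chains showed smaller differences. COL4A1 was 5.80, 5.93 and 5.18 (log2) in H69M and 5.01, 5.14 and 4.92 in H69. Its mean lay 0.089 above the dim-level line in H69M and 0.70 below it in H69, so its change may be understated. The log2 fold change was 0.61, called in limma with a Benjamini-Hochberg adjusted p = 0.026, and the call was lost without H69M replicate 1 (adjusted p = 0.0794), H69M replicate 2 (0.0816), H69 replicate 1 (0.0681) or H69 replicate 3 (0.0849). COL4A2, at 0.37, missed the threshold (limma Benjamini-Hochberg adjusted p = 0.18) and passed it without H69M replicate 3 (0.61, adjusted p = 0.00505). As for LAMA1, LAMA4 and NID2, H69M replicate 3 was the lowest H69M array for both.

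Genes that put the laminin-binding sugar on dystroglycan moved by small amounts. Of 9 measured, 2 were higher in H69M and 3 lower, with a median log2 fold change of -0.088, beside 21% higher and 23.2% lower over all genes. The enzyme genes POMGNT2 (0.63) and POMGNT1 (0.49) rose, and the enzyme genes RXYLT1 (-0.39) and POMT2 (-0.25) fell. POMT1, named after its value was seen, had -0.20, and its call was lost with the replicate number as a block (limma Benjamini-Hochberg adjusted p = 0.0662) and without H69M replicate 2, H69M replicate 3 or any 1 of the H69 arrays (adjusted p = 0.0664 to 0.102), which left 2 lower.

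**Figure D4:**
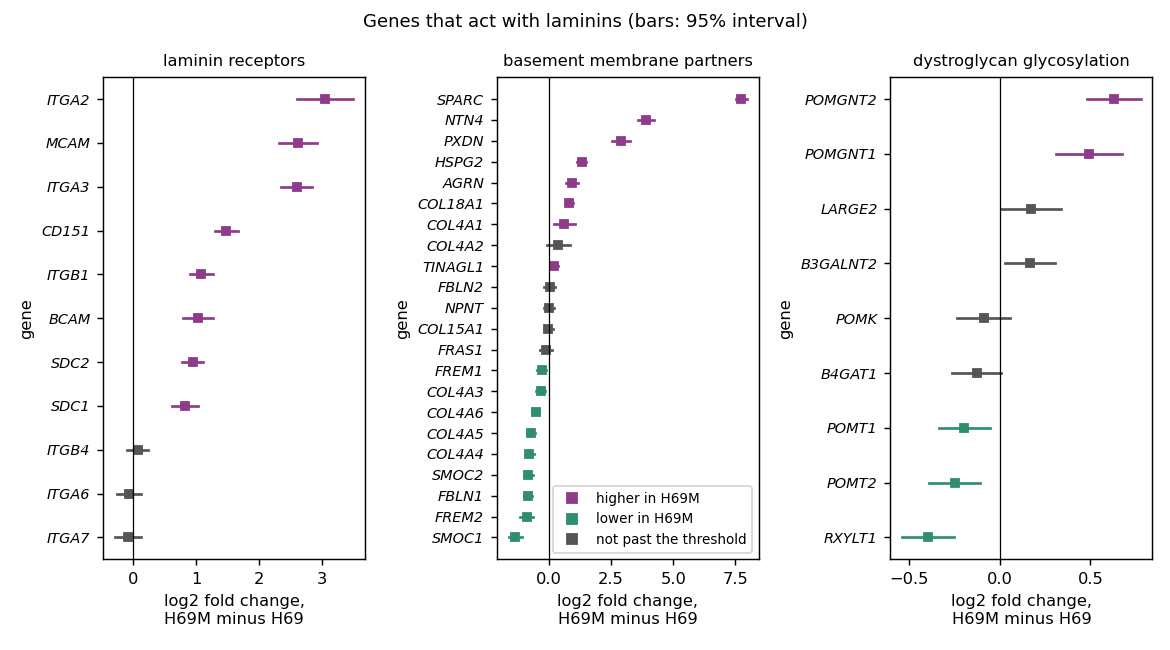
Log2 fold change, H69M minus H69 (x axes, which differ in scale), with 95% intervals for genes that act with laminins (y axes), in 3 lists. Of the receptors 8 of 11 are higher in H69M, of the basement membrane partners 8 are higher and 9 lower, and the glycosylation genes lie between -0.39 and 0.63. Over all genes 21% are higher and 23.2% lower.

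The genes beside the members on their chromosomes gave mixed values. All genes did too, with 21% called higher and 23.2% lower. For LAMA4, 2 of the 10 nearest measured genes (5 on each side) were higher and 3 lower, with a median log2 fold change of -0.042, although the gene next to it, FAM229B, rose by 1.38. For LAMA1, 2 were higher and 6 lower, and its neighbour PTPRM, a receptor phosphatase gene, fell by 3.54. Around LAMA2, which did not pass, 6 were higher and 3 lower, with a median of 0.52 and a range of -1.65 to 5.31. The medians were -0.056 around LAMB2, -0.14 around LAMC1 and -0.19 around NID1. LAMB1 and LAMB4 are direct neighbours and were called in opposite directions (0.23 and -0.72).

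**Figure D5:**
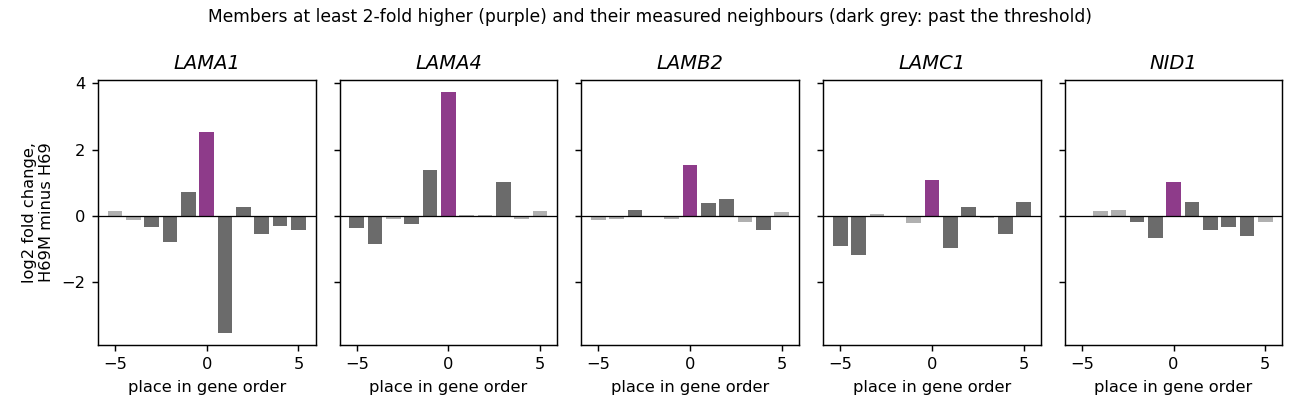
Log2 fold change, H69M minus H69 (y axis), of the 5 members that were at least 2-fold higher (purple, place 0) and of the 5 nearest measured genes on each side by order in the RefSeq table (grey, dark where past the threshold). Each member stands above all of its 10 neighbours.

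Markers were read beside these results. Over all genes, 21% were called higher and 23.2% lower. The dim-level line was passed by 75.2% of all genes in H69M and 71.8% in H69. Of 12 fibroblast markers, 10 were higher in H69M and 0 lower, the mean log2 value of the list was 8.18 to 8.54 over the H69M arrays and 5.36 to 5.38 over the H69 arrays, and 9 lay above the dim-level line in H69M and 4 in H69. DCN, DPT and TCF21 were below it in both lines. Fibroblasts make several of these laminin chains, and the part of this shift in the results was not tested. Of 6 smooth muscle and pericyte markers, 4 were higher in H69M and 0 lower, with a list mean of 8.10 to 8.13 in H69M and 5.981 to 6.001 in H69. The log2 fold changes in this list were largest for ACTA2 (6.76) and CNN1 (3.64), while MYH11 (-0.032) and DES (-0.063) did not pass. Of 8 endothelial markers 3 were higher and 1 lower, with a list mean of 5.25 to 5.59 in H69M and 4.96 to 5.03 in H69. TEK, the angiopoietin receptor gene, averaged 7.89 in H69M, above the line, and 4.61 in H69, below it (log2 fold change 3.28), and CLDN5 was lower (-0.53) and above the line in both. KDR (0.39) and EMCN (0.44) were higher, and these and PECAM1, CDH5, VWF and TIE1 were below the line in both lines. The leukocyte list mean was 4.77 in every H69M array and 4.84 to 4.92 in H69, with 1 of 5 markers higher and 3 lower, and 0 of 2 Schwann cell markers passed. All 7 measured neuroendocrine markers and all 5 epithelial markers lay above the line in both lines. Of the neuroendocrine markers 5 were lower in H69M and 0 higher, with a list mean of 8.75 to 9.12 in H69M and 9.61 to 9.66 in H69, and of the epithelial markers 2 were higher and 2 lower.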

How the data were processed

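RNA of 3 H69M and 3 H69 arrays was extracted with a column kit, amplified and biotin-labelled by a sense-target method, per the labels' protocols. The authors deposited log2 values, 1 per probe set and array. RMA and limma are named, without versions, per the submitters' processing notes. The sources used here give neither the program used for RMA nor a genome build. Of 32321 probe sets, 19158 had 1 gene symbol and were used, 1388 had several, and 11775 were not listed in the platform annotation. For 637 genes with more than 1 probe set, the brightest was used. Array medians lay between 6.43 and 6.48. Arrays correlated over genes with r of 0.995 to 0.998 within a line and 0.938 to 0.950 between lines.

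H69M was compared with H69 in R 4.3.3 with limma 3.58.1 (a linear model with eBayes, two-sided, no other term), with Benjamini-Hochberg adjustment over all 18404 genes. Intervals are 95% intervals of the moderated test, and the median standard error was 0.075. Precision is limited by the number of arrays. The code was tested on simulated data. Every member was named, and from each related list the called genes with the largest changes (at most 4) and a few fixed genes. The members, lists, dim-level line and trimers were chosen with earlier results of these data known. RefSeq tables (GRCh38.p14) gave promoters, and gene order only. Python 3.11.15 was used for tables and plots. Same-numbered arrays did not deviate together (r of 0.0072 to 0.021 over genes), so replicate numbers were not treated as pairs.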

Additional observations from a re-analysis of the deposited data

How the results depend on the processing

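All 15 alternative fits kept the direction and call of LAMA1, LAMA4, LAMB2, LAMB3, LAMC1 and NID1 where these genes were in the fit. LAMA2, LAMA5 and LAMC3 passed in none. The fits were the replicate number as a block, 2 other scalings, 2 filters on dim genes, 3 other variance models or weights, averaged probe sets, and the omission of each array. LAMB1 had a log2 fold change between 0.21 and 0.25 with single arrays left out, and lost its call in 2 of these fits. Without the genes whose level was under the median, fewer genes were tested: 4 of 5 members were called higher, as were 5 of 10 basement membrane partners with 3 lower, and over all genes 483 were at least 2-fold higher and 323 lower. LAMB4 was dim and dropped out of both filtered fits, so that 0 genes of its list were called lower. With arrays centred on their medians, 4 dystroglycan glycosylation genes were called higher instead of 2. The trimer counts were 8 in H69M and 3 in H69 under every alternative but the median of all genes as the line, which gave 6 in H69M and 1 in H69. With the replicate number as a block, 7 members were called higher, 3617 genes were higher and 4021 lower. Dim levels limit what LAMA2 and LAMB4 can show.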

Other observations

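The minor collagen IV chains, named after their values were seen, were lower in H69M while most laminin chains were higher. COL4A4 was 5.41, 5.19 and 5.15 (log2) in H69M and 5.998, 6.046 and 6.096 in H69 (log2 fold change -0.80, limma Benjamini-Hochberg adjusted p = 0.00011). COL4A5 had -0.73, COL4A6 -0.54 and COL4A3 -0.33, and all 4 passed. Over all genes, 23.2% were called lower and 21% higher. COL4A3 and COL4A4 lay above the dim-level line in H69 and below it in H69M, by small margins. COL4A3 was 0.044 above it in H69 and 0.11 below it in H69M. For COL4A4 these margins were 0.33 and 0.30. Other matrix genes of the partner list that fell, also named after their values were seen, were FREM2 (-0.91), FBLN1 (-0.85), SMOC2 (-0.84) and FREM1 (-0.30). FREM2 and FBLN1 were above the dim-level line in both lines. SMOC2 was 0.64 below it in H69M and only 0.026 above it in H69. FREM1 was below it in both, by 0.75 in H69M and 0.62 in H69. The FREM1 call was lost without H69M replicate 2, H69 replicate 2 or H69 replicate 3 (limma Benjamini-Hochberg adjusted p = 0.055 to 0.0647 over these).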
